A study of Mus musculus with 6 samples.

Results

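The genes of glycolysis, the pentose phosphate pathway and the tricarboxylic acid (TCA) cycle were followed in mouse CD8+ T cells grown as Tc1 or Tc17 cells. Members were 36 genes taken from a list and matched to probe sets that the platform annotation gives exactly 1 symbol. Where a gene had several such probe sets, the one with the highest mean over the 6 arrays stood for it. This gave 31 measured members out of 22180 genes with such a probe set. Aldoa and Tkt lie on probe sets that carry several symbols, and Gpi1, Eno1 and G6pdx had no match by symbol, so these 5 members were not analysed here.

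The study compared cultures of naive splenic CD8+ T cells activated for 4 days with antibodies to CD3 (1 µg/ml) and CD28 (3 µg/ml). Tc1 cultures had IL-12 for 3 of those days and Tc17 cultures had IL-6 and TGF-beta instead, followed in both by 1 further day with IL-2. Tc1 cells make interferon-gamma and Tc17 cells make IL-17. Total RNA was hybridised to 6 single-colour Affymetrix arrays, 3 per group, which represent 2 samples per group, since the sample numbered 2 in each group has 1 further technical array. The labels call the samples biological replicates without naming the animals or cultures behind them. The p-values below weigh a difference against the spread between these samples, combined with the spread seen over all probe sets. The labels used here name no strain, sex or age of the mice. In bulk RNA, fewer cells of a type and less RNA per cell cannot be told apart.

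Glycolysis splits glucose into pyruvate in the cytosol. Activated T cells are known for running it fast and releasing lactate even with oxygen present. The pentose phosphate pathway branches off after the first phosphorylation of glucose and supplies NADPH and ribose for nucleotides. The TCA cycle oxidises acetyl-CoA made from pyruvate in mitochondria and also feeds biosynthesis. HIF-1 and MYC are textbook activators of the glycolysis genes in T cells.

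The binding core of HIF-1 in DNA is ACGTG or GCGTG, and MYC binds the E-box CACGTG, which contains ACGTG. Promoter windows (250 bases before to 50 after a RefSeq start, build GRCm38.p6) were listed for 29 of the 31 measured members, at 44 starts. ACGTG or its reverse complement CACGT lay in 23 of these windows (52.3%), against 19.6% of all 32851 windows. GCGTG on either strand lay in 59.1% of the member windows and 32.4% of all windows, and CACGTG in 15.9% and 7.15%. Windows of 1 gene can overlap, as the 6 of Ogdh do, and base composition was not taken into account. The 250 bases before the start (the first listed where there are several) are shown, 5′ to 3′ on the gene's strand, for 3 glycolytic members with ACGTG there, Ldha, Pgk1 and Hk2. Those of Taldo1, the member with the largest measured difference, are shown beside them and hold GCGTG and no ACGTG. Capitals mark ACGTG and GCGTG on either strand.
Ldha (chr7:46845554-46845803, plus strand): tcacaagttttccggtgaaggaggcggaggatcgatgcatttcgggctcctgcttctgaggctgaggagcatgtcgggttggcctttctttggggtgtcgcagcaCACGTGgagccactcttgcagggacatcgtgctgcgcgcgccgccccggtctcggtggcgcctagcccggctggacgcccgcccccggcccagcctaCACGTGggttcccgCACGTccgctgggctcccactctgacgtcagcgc
Pgk1 (chrX:106186850-106187099, plus strand): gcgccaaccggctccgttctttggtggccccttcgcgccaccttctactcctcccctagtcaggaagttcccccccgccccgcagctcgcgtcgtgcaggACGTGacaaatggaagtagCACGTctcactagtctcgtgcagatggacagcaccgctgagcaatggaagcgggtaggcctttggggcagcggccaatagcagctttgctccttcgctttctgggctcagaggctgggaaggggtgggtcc
Hk2 (chr6:82774455-82774704, minus strand): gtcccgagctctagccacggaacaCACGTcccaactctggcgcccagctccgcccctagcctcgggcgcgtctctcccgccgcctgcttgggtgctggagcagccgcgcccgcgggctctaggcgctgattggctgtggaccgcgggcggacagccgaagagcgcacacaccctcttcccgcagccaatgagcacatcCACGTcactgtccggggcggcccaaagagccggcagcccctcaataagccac
Taldo1 (chr7:141391910-141392159, plus strand): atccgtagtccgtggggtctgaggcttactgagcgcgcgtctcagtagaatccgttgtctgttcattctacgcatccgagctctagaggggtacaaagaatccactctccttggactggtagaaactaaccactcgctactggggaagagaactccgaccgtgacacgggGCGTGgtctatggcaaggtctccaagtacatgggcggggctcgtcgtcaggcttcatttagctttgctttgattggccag
A match is a description of the letters and not a measured binding site. The 3 glycolytic genes shown had log2 differences (Tc17 minus Tc1) of −0.010 (Ldha), −0.012 (Pgk1) and 0.23 (Hk2), none of which passed the test. They are examples among several glycolytic members with ACGTG. The differences of members with and without these motifs were not compared.

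The arrays carried the markers of their labels. Cd8a measured 12.75 to 13.01 and Cd8b1 12.80 to 12.85 on the log2 scale, Ifng and Tbx21 fell in Tc17, and Il17a and Il17f rose. The 2 CD4 T cell markers, Cd4 and Zbtb7b, measured 6.80 to 7.36 and 7.70 to 8.02 against array medians of 6.04 to 6.09. They differed by −0.057 and −0.13, and neither was called. Of 7 macrophage and monocyte markers Lyz2 rose (log2 difference 3.53, limma adjusted p = 0.00594). Its Tc1 arrays all lay below every array median, where signal above background was not shown. Of the 7 markers 6 had a difference above 0. Those of Csf1r, Cd14 and Adgre1 were 0.28, 0.25 and 0.38, none called, with Cd14 and Adgre1 below every array median throughout. The summed intensity of the list was 10.14 to 10.63 (log2) in Tc1 and 10.66 to 10.84 in Tc17. Cd68, the brightest of the 7, differed by −0.14. The 5 measured of 6 B cell markers summed to 10.02 to 10.19 in Tc1 and 10.47 to 10.60 in Tc17, with none called. The higher sum was that of Cd79b (difference 0.52, limma adjusted p = 0.162), while Cd79a, Ms4a1, Pax5 and Blnk had differences from −0.057 to 0.016. Of 3 measured of 4 natural killer cell markers Nkg7, which cytotoxic T cells also express, fell by 1.11, and Ncr1 and Klrb1c had means below every array median. The part of such cells in the values below was not tested.

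None of the 31 members differed between Tc17 and Tc1 in limma's moderated test at an adjusted p of 0.05. Over all genes the test called 1.58% (351 of 22180), and over the 8614 genes whose mean level lay in the members' range (7.61 to 13.56 on the log2 scale) it called 3.01% (1.8% higher and 1.21% lower). The lowest adjusted p among the members was 0.165, for Taldo1. At an unadjusted p of 0.05, 1 member was higher and 3 were lower in Tc17, 12.9% of the members, beside 15.9% of all genes (9.1% higher and 6.79% lower) and 26.1% (14.6% and 11.5%) of those in the same range of levels. The differences ran from −0.39 to 0.23 with a median of −0.036, and the median over all genes was −0.013. Of the members 22 lay below 0 (71%), against 54.2% of all genes and 48% of those in the same range of levels.

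The intervals show how large a difference the samples leave possible. The 95% interval of limma, taken gene by gene, stayed within 1 log2 unit of 0 (a 2-fold change) for all 31 measured members (94.9% of all genes, and 91.4% in the same range of levels). It stayed within 0.5 (a 1.41-fold change) for 25 members, 80.6%, against 77% of all genes and 62.9% of genes in the same range of levels. The 6 members whose intervals reached past 0.5 on either side were Slc2a3, Hk2, Pfkfb3, Taldo1, Idh2 and Fh1. The smallest absolute difference among the called probe sets of the table was 0.62, so differences of the size found here lay under anything the test called with 2 samples per group.

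**Figure D1:**
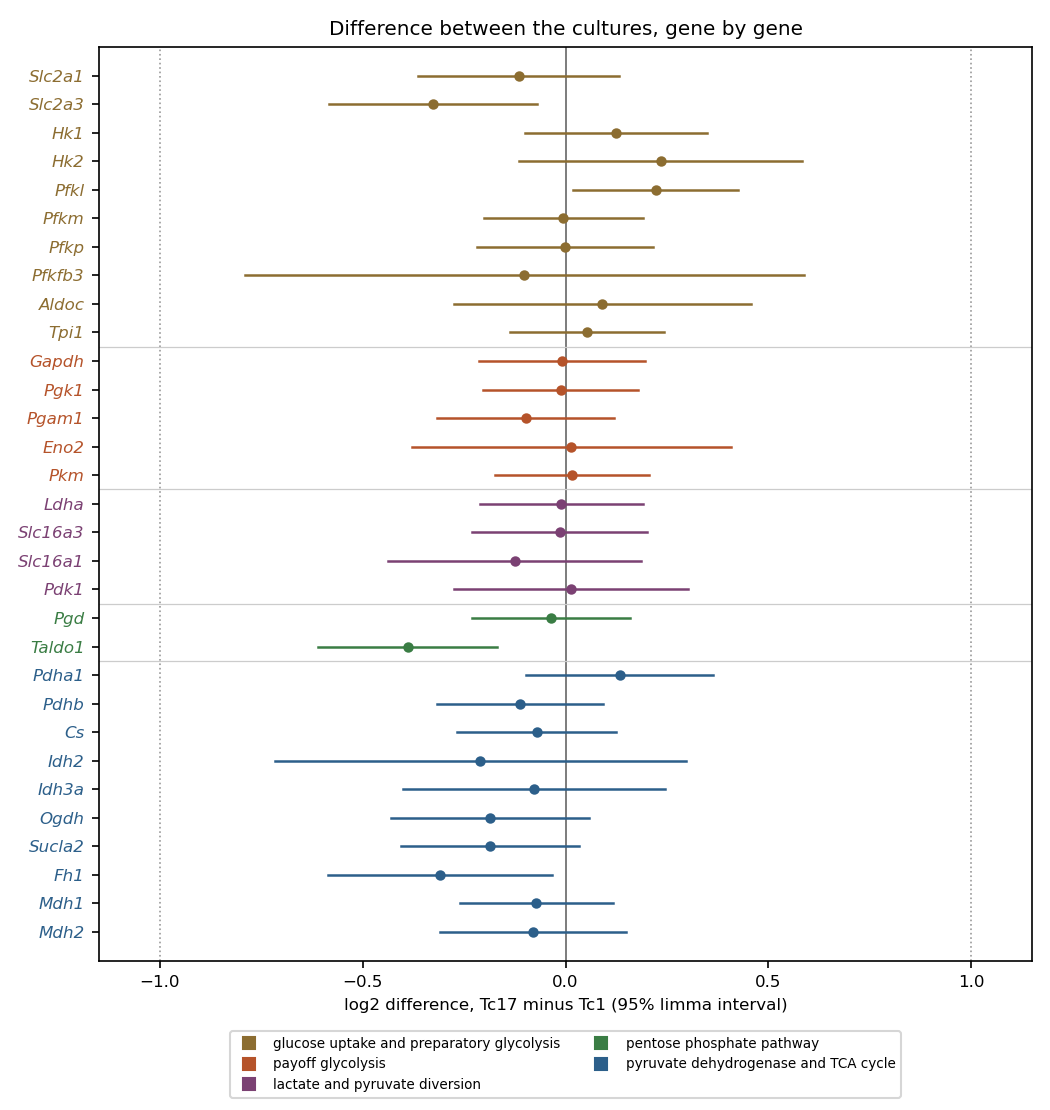
Log2 difference (Tc17 minus Tc1) of the 31 measured members, with points for the estimate and bars for the 95% limma interval (2 samples per group), coloured by pathway group; dotted lines mark 1 log2 unit on either side of 0. Every bar lies between the dotted lines, and those of Slc2a3, Pfkl, Taldo1 and Fh1 do not reach 0.

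Glucose uptake and the preparatory steps held 10 measured members, 5 with a difference above 0 and 5 below, with a median of 0.026; the value of Pfkp, −0.0015, turned above 0 with median centring and with quantile normalization. Values are given below for Tc1 or Tc17 in the order sample 1, sample 2, technical array of sample 2. Slc2a3, which encodes the high-affinity glucose transporter GLUT3, measured 12.05, 12.15 and 12.16 in Tc1 and 11.69, 11.82 and 11.90 in Tc17. All 3 Tc17 arrays lay below all 3 Tc1 arrays. Its log2 difference was −0.33 ± 0.10 (SE, 95% interval −0.58 to −0.071), with an unadjusted p of 0.0226 and a limma adjusted p of 0.276. Slc2a1, the gene of GLUT1, the main glucose transporter induced on T cell activation, measured 12.94 ± 0.12 in Tc1 and 12.82 ± 0.066 in Tc17 (log2, SD, n = 2), a difference of −0.12 with overlapping arrays.

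Hexokinases trap glucose in the cell as glucose 6-phosphate. Hk2, the inducible hexokinase, measured 10.86, 10.64 and 10.47 in Tc1 and 11.02, 10.83 and 10.90 in Tc17, the highest difference of the members (0.23 ± 0.13 SE, 95% interval −0.11 to 0.58). Tc1 sample 1 lay above the first array of Tc17 sample 2, so the groups overlapped. With each sample left out the Hk2 difference ran from 0.0825 (without Tc1 sample 2) to 0.39 (without Tc1 sample 1). Pfkl, described next, had a higher value than Hk2 without the technical array (0.21 against 0.18), without Tc1 sample 2 and without Tc17 sample 1. Hk1, the constitutive form, differed by 0.12 (95% interval −0.10 to 0.35).

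Phosphofructokinase commits the sugar to glycolysis, and its 3 subunit genes gave unlike values. Pfkl, the liver-type subunit, measured 11.27, 11.29 and 11.22 in Tc1 and 11.43, 11.53 and 11.52 in Tc17, with every Tc17 array above every Tc1 array. Its difference was 0.22 ± 0.078 (SE, 95% interval 0.018 to 0.43; unadjusted p = 0.0387, limma adjusted p = 0.341). The muscle-type Pfkm and platelet-type Pfkp had differences of −0.0055 and −0.0015, with intervals of −0.20 to 0.19 and −0.22 to 0.21. Whether Pfkl differed from the other subunits in its response was not tested. Pfkfb3, which makes the allosteric activator fructose 2,6-bisphosphate, had the widest interval of the members, −0.79 to 0.59. Its sample 1 was the lower one in both cultures (8.72 against 9.39 and 9.22 in Tc1, and 8.66 against 9.06 and 9.26 in Tc17). Of the later enzymes of this stretch, Aldoc (aldolase C) differed by 0.091 and Tpi1 (triose phosphate isomerase) by 0.0535, both with intervals across 0.

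The payoff steps, which yield ATP and NADH, showed small differences throughout. The 5 measured members ran from −0.099 to 0.016 with a median of −0.0091, the arrays of the groups overlapped in all 5, and all 5 intervals lay within 0.5 of 0. The signs of Gapdh, Pgk1 and Eno2 turned with quantile normalization or other uses of the technical array. The highest difference was that of Pkm, pyruvate kinase, which measured 13.14, 13.17 and 13.18 in Tc1 and 13.17, 13.14 and 13.20 in Tc17. The lowest was that of Pgam1, phosphoglycerate mutase, at 12.56, 12.48 and 12.55 in Tc1 and 12.38, 12.56 and 12.45 in Tc17 (−0.099 ± 0.0825 SE). Gapdh, the glyceraldehyde phosphate dehydrogenase often used as a reference gene, measured 13.49 ± 0.065 in Tc1 and 13.48 ± 0.020 in Tc17 (SD, n = 2), and Pgk1, phosphoglycerate kinase, 13.57 ± 0.012 and 13.55 ± 0.036. Eno2, the gamma enolase, differed by 0.0145.

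Brightness limits what these probe sets can show at the top of the scale. The means of Tpi1, Gapdh, Pgk1 and Pkm lay above 13, and the highest value of any array was 13.96, so a compressed response near the maximum was not tested. Gapdh and Pgam1 have near-identical processed pseudogenes in the mouse genome, and which copies their probe sets detect was not tested. The other probe sets of Gapdh differed by −0.023 and −0.29 and the other one of Pgam1 by −0.077. Those of Slc2a1 and Pdk1 differed by −0.19 and −0.069, and none of these 5 passed.

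Pyruvate diversion to lactate and its export held 4 measured members, with differences from −0.13 to 0.014. Ldha, the lactate dehydrogenase A subunit, measured 9.81, 9.88 and 9.86 in Tc1 and 9.80, 9.89 and 9.83 in Tc17, a difference of −0.010 (95% interval −0.21 to 0.19). Slc16a3, the lactate exporter MCT4, differed by −0.015. Slc16a1, the gene of the monocarboxylate carrier MCT1, measured 11.77, 11.56 and 11.46 in Tc1 and 11.58, 11.40 and 11.49 in Tc17, the lowest difference of this group. Pdk1, the kinase that switches pyruvate dehydrogenase off, measured 10.11, 10.30 and 10.30 in Tc1 and 10.13, 10.29 and 10.32 in Tc17, and its difference of 0.014 had an interval of −0.28 to 0.30. In all 4 genes the arrays of the groups overlapped, and the signs of Ldha, Slc16a3 and Pdk1 turned under 1 alternative each of those that keep every sample (the technical array left out, quantile normalization, and averaged probe sets).

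The pentose phosphate pathway had 2 measured members. Pgd, an NADPH-making dehydrogenase of the oxidative arm, measured 12.02, 11.97 and 12.02 in Tc1 and 11.94, 11.98 and 12.02 in Tc17, a difference of −0.036. Taldo1, the transaldolase of the non-oxidative arm, measured 9.85, 9.84 and 9.71 in Tc1 and 9.36, 9.49 and 9.47 in Tc17. The groups did not overlap, and the difference of −0.39 ± 0.084 (SE, 95% interval −0.61 to −0.17) was the largest of the members. With an unadjusted p of 0.00684 and a limma adjusted p of 0.165 it did not pass. It passed only where the technical arrays entered the fit beside the samples, as 6 separate samples (limma adjusted p = 0.0323) or with the sample as a random block (limma adjusted p = 0.0391).

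Pyruvate dehydrogenase and the TCA cycle held 10 measured members, 9 of them with a difference below 0 (90%, beside the 54.2% and 48% given above). Their median was −0.097, running from −0.18 to −0.054 with each sample left out in turn. Without Tc1 sample 1, the values of Idh2 and Idh3a turned to 0.031 and 0.070. The arrays of the groups did not overlap in 7 of the 10, against 29.7% of all genes and 45% of those in the members' range; over all 31 members it was 11 (35.5%). Pdhb (a subunit of pyruvate dehydrogenase), Cs (citrate synthase), Ogdh (oxoglutarate dehydrogenase), Sucla2 (a succinyl-CoA ligase subunit), Fh1 (fumarate hydratase) and Mdh1 (the cytosolic malate dehydrogenase) had the lower arrays in Tc17, and Pdha1 the higher. Of all genes 14.5% had all arrays lower and 15.2% all arrays higher in Tc17 (20.9% and 24.1% in the members' range). None of the 10 passed the test. The 34 other measured pyruvate and TCA cycle genes, described below, did not share this direction as a list, with 15 of them below 0. Their arrays did not overlap in 10 (29.4%), 6 higher and 4 lower in Tc17. That list mixes enzyme subunits with others such as carriers and transaminases. Of its pyruvate dehydrogenase and TCA enzyme subunits, Pdhx (−0.27), Dlat (−0.15), Pdha2 (−0.13), Suclg2 (−0.11), Dld (−0.039), Sdhb (−0.22) and Sdhd (−0.23) lay below 0. Suclg1 (0.27), Idh3b (0.084), Sdhc (0.042), Idh3g (0.040), Dlst (0.040) and Sdha (0.0089) lay above 0. All Tc17 arrays lay lower for Pdhx, Sdhb and Sdhd and higher for Idh3b and Idh3g, and none passed.

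Fh1 had the lowest difference of this group. It measured 10.82, 10.59 and 10.63 in Tc1 and 10.46, 10.30 and 10.40 in Tc17, a difference of −0.31 ± 0.11 (SE, 95% interval −0.59 to −0.033; unadjusted p = 0.0352, limma adjusted p = 0.328). Pdha1, the catalytic alpha subunit of pyruvate dehydrogenase, had the highest, at 9.85, 9.83 and 9.80 in Tc1 and 10.05, 9.86 and 9.92 in Tc17 (0.13 ± 0.088 SE). Its Tc17 arrays exceeded those of Tc1 by little, and its partner subunit Pdhb differed by −0.11. Ogdh and Sucla2, which act in turn on oxoglutarate and succinyl-CoA, both differed by −0.19. Idh2, the NADP-dependent mitochondrial isocitrate dehydrogenase, differed by −0.21 with an interval of −0.72 to 0.30. Idh3a, a subunit of the NAD-dependent enzyme, Mdh2, the mitochondrial malate dehydrogenase, Cs and Mdh1 had differences between −0.0805 and −0.0715. In the same arrays 10 of 11 measured cell cycle genes had a difference below 0 (median −0.22, none called), and its part in the TCA values was not tested.

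**Figure D2:**
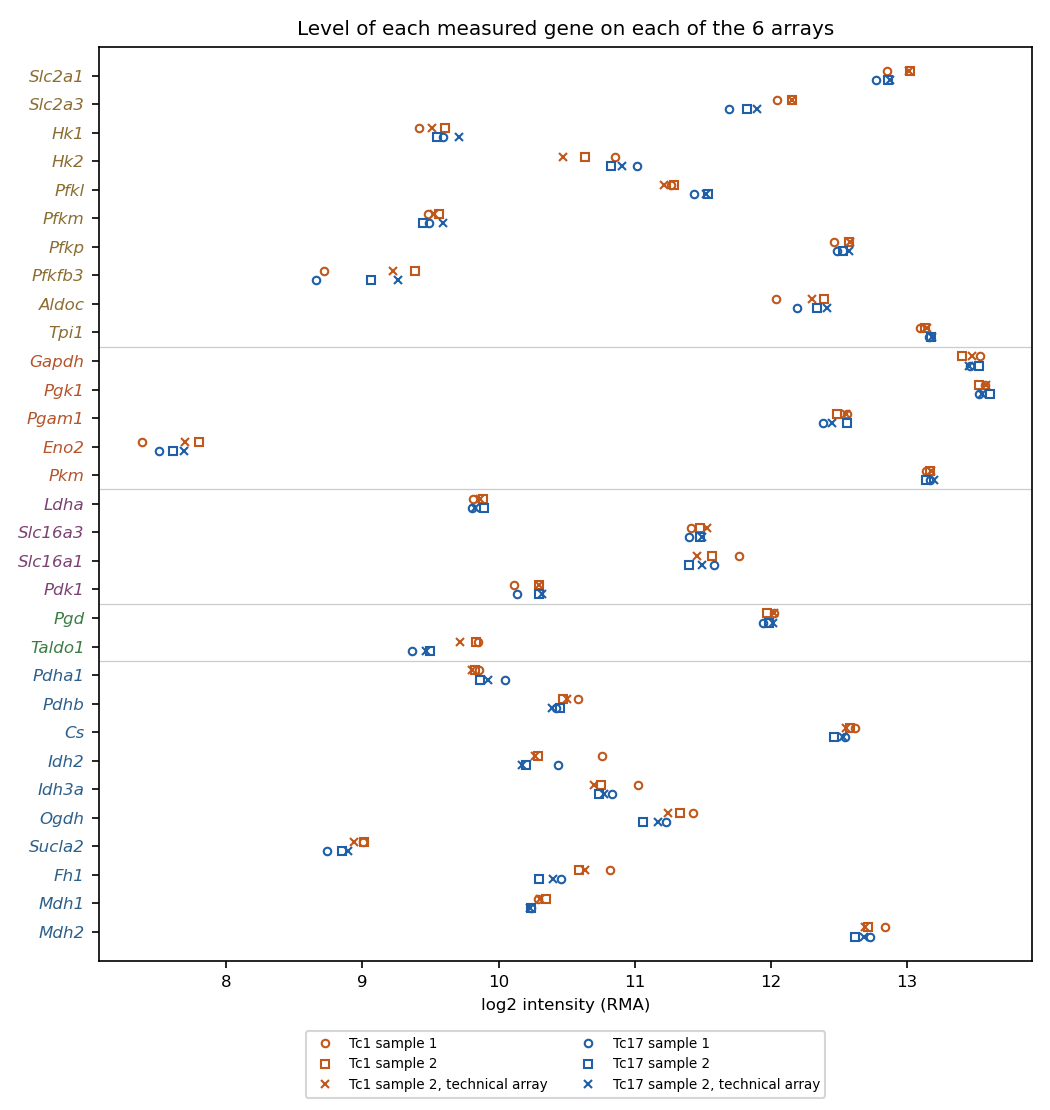
Log2 RMA intensity of the 31 measured members on each of the 6 arrays (circles sample 1, squares sample 2, crosses the technical array of sample 2; orange Tc1, blue Tc17). The arrays of a gene lie close together, with Slc2a3, Pfkl, Taldo1 and Fh1 among the 11 genes in which the colours do not mix; levels of different genes are not comparable.

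The spread among samples was about as large as the difference between cultures for these genes, as it was over all genes. Over all genes the median absolute difference was 0.094 between the cultures, and 0.10 in Tc1 and 0.091 in Tc17 between samples. Genes in the members' range of levels had larger values, 0.143 between the cultures, and 0.135 in Tc1 and 0.102 in Tc17 between samples. The median absolute difference between the cultures was 0.091 over the 31 members, and that between the samples of a culture was 0.097 in Tc1 and 0.0935 in Tc17. The median absolute difference between the arrays of sample 2 was 0.049 in Tc1 and 0.057 in Tc17. In 12 of the 31 members both cultures had a gap between their samples larger than the gap between the cultures. The share of all genes with such gaps was not counted. A gap between 2 samples and a difference between means of 2 samples are unlike measures.

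The gaps between samples ran the same way in both cultures in 22 of the 31 members. In 8 of the 10 uptake and preparatory members sample 1 lay below sample 2 in both cultures, and in 8 of the 10 TCA members sample 1 lay above sample 2 in both. Of the 8614 genes in the members' range of levels, 2990 had sample 1 below sample 2 in both cultures and 3162 above. Pfkfb3 was lower in sample 1 by 0.58 in Tc1 and 0.50 in Tc17, and Aldoc by 0.31 and 0.19. Idh2 was higher in sample 1 by 0.48 in Tc1 and 0.25 in Tc17. Hk2 and the carrier gene Slc16a1 were also higher in sample 1, Hk2 by 0.30 and 0.15 and Slc16a1 by 0.25 and 0.14. Across the 31 genes, which are not independent replicates and share the same 4 samples, Pearson's r between the gaps of the cultures was 0.87 (Spearman's rho 0.76). It was 0.76 without Pfkfb3 and Idh2, the farthest from the median. The 8614 genes in the same range of levels gave an r of 0.64 and the same direction in 71.4%, beside 71% of the members. The labels give the same numbers to samples of both cultures without saying that they were handled together.

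**Figure D3:**
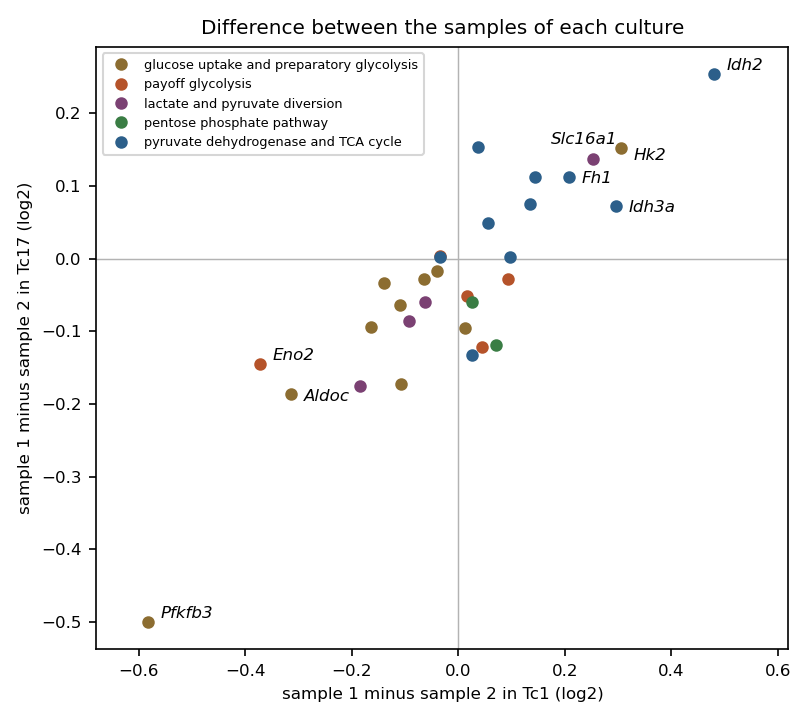
Log2 gap between sample 1 and sample 2 (arrays of sample 2 averaged) in Tc1 on the horizontal axis and in Tc17 on the vertical axis, 1 point per measured member, coloured by pathway group. TCA genes lie mostly at the upper right and genes of uptake and preparatory glycolysis mostly at the lower left, with Pfkfb3 and Idh2 at the ends.

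Of 75 other genes of the same pathways, 69 were measured, and 1 rose and 1 fell in Tc17 (adjusted p under 0.05, beside 0.992% of all genes higher and 0.591% lower). Slc2a6, which encodes GLUT6, a glucose transporter family member found largely on intracellular membranes, measured 6.76, 6.44 and 6.49 in Tc1 and 9.50, 8.83 and 8.62 in Tc17. All Tc17 arrays lay above those of Tc1, and its log2 difference was 2.50 ± 0.28 (SE, limma adjusted p = 0.0479), a 5.66-fold higher intensity. The call ended with quantile normalization (limma adjusted p = 0.0502) and without Tc1 sample 1, Tc1 sample 2 or Tc17 sample 1 (limma adjusted p = 0.165, 0.182 and 0.0789), where the differences were 2.48, 2.65, 2.35 and 2.11. Without Tc17 sample 2 the call was kept, at 2.89 (limma adjusted p = 0.0407). Its Tc1 mean of 6.61 was near the array medians, and signal above background was not shown there.

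Me1, the cytosolic malic enzyme that turns malate into pyruvate and makes NADPH, fell. It measured 9.38, 9.16 and 9.29 in Tc1 and 5.29, 4.95 and 5.19 in Tc17, with all Tc17 arrays below every array median. Its log2 difference was −4.12 ± 0.11 (SE, limma adjusted p = 0.00256) and ran from −4.23 to −4.01 with each sample left out, passing each time. Signal above background was not shown in Tc17, so this is a difference of intensities and the size of the fall in RNA is not known beyond it. Pgd, which also makes NADPH, and Idh2 did not pass, as given above.

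**Figure D4:**
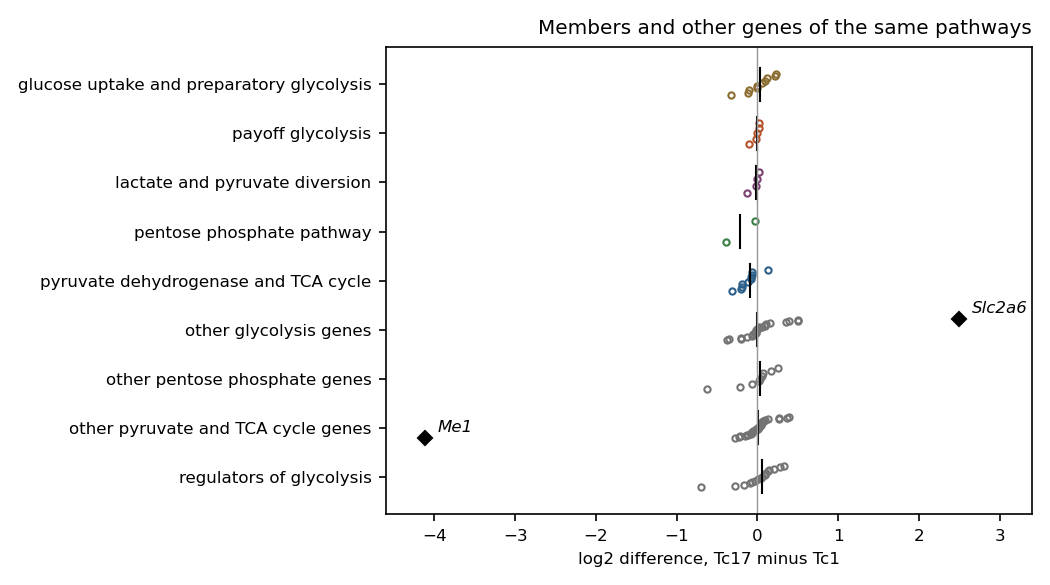
Log2 difference (Tc17 minus Tc1) of the members by pathway group and of 4 further gene lists, with 1 point per gene, a vertical bar at each list's median and black diamonds for genes with a limma adjusted p under 0.05. Slc2a6 at 2.50 and Me1 at −4.12 lie far from the other points, which fall between −0.69 and 0.51.

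The other glycolysis genes (26 of 30 measured) had a median difference of −0.0067, with 12 above and 14 below 0. Among them G6pc3, a ubiquitous glucose 6-phosphatase subunit that was singled out after its values were seen, measured 9.77, 9.69 and 9.67 in Tc1 and 10.26, 10.13 and 10.27 in Tc17. The groups did not overlap, and its difference of 0.51 ± 0.079 (SE) did not pass (limma adjusted p = 0.0912). It passed with the replicate number as a block (limma adjusted p = 0.0443), with 6 separate arrays (limma adjusted p = 0.00796) and with the sample as a random block (limma adjusted p = 0.0105). Ldhb, the lactate dehydrogenase B subunit, was picked in the same way. It measured 7.21, 6.99 and 6.74 in Tc1 and 7.74, 7.38 and 7.34 in Tc17, without overlap. Its difference of 0.51 ± 0.18 (SE) did not pass (limma adjusted p = 0.355). Over the 26 genes the groups did not overlap in 7 (26.9%, beside 29.7% of all genes), 5 higher and 2 lower in Tc17.

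None of the 9 measured other pentose phosphate genes passed; 6 lay above 0 and 3 below, with a median of 0.029. The arrays of the groups did not overlap in 4 of them (44.4%), beside 29.7% of all genes and 45% in the members' range. H6pd and Rbks had the higher and Rpia and Rpe the lower values in Tc17. The highest difference was that of Rbks (ribokinase), 0.26, and the lowest that of Rpia. Rpia, which interconverts ribulose and ribose 5-phosphates in the non-oxidative arm beside Taldo1, measured 10.45, 10.43 and 10.43 in Tc1 and 9.74, 9.89 and 9.86 in Tc17. Every Tc17 array lay below every Tc1 array, and its difference of −0.63 ± 0.084 (SE, 95% interval −0.85 to −0.41) missed the threshold with a limma adjusted p of 0.0661. It passed with the replicate number as a block (limma adjusted p = 0.0327), with a minimum mean level of 6 (limma adjusted p = 0.0442) and with the technical arrays in the fit. Rpe, the epimerase of the same arm, was picked after its values were seen and differed by −0.22 (95% interval −0.41 to −0.016; limma adjusted p = 0.343), again with no overlap.

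Of the other pyruvate and TCA cycle genes 34 of 36 were measured, with a median of 0.012, 19 above and 15 below 0. The 17 regulators of glycolysis had a median of 0.061 and none passed. Hif1a, the oxygen-sensitive subunit of the HIF-1 introduced above, differed by 0.093 (95% interval −0.098 to 0.28), and Myc by 0.089 with a wide interval of −0.69 to 0.87. The highest difference of these regulators was 0.33, for Irf4, a transcription factor gene induced by T cell receptor signals. The lowest was −0.69, for Epas1, the gene of HIF-2 alpha, which measured 6.97, 7.75 and 7.47 in Tc1 and 6.63, 6.70 and 6.40 in Tc17 (limma adjusted p = 0.304). Its Tc17 arrays all lay below those of Tc1, and the difference was −1.01 without Tc1 sample 1 and −0.38 without Tc1 sample 2.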

How the data were processed

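The deposited values were log2 intensities of 41345 probe sets on 6 arrays, for which the submitters' processing notes name RMA and Partek without a version. RMA corrects background, normalizes between arrays and summarizes probes; the order of the steps and any detection calls are not given in the sources used here. The technical array of sample 2 was averaged with sample 2, leaving 2 samples per group. Differences were fitted with limma 3.58.1 in R 4.3.3 (lmFit, eBayes; 2 residual and 2.63 prior degrees of freedom) with Benjamini-Hochberg adjustment across the full set of probe sets, no filter and a threshold of 0.05. The procedure was tested on simulated data. Symbols came from the platform annotation (1 symbol for 23521 probe sets, several for 1814, none for 16010).

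Members and lists were chosen with earlier results of these data known. Every member was named. Per-array values were given for members with an unadjusted p under 0.05 and for the highest and lowest of each pathway group. They were also given for Ldha and Pfkfb3, which meet neither condition. Of the other lists of the pathways, called genes or otherwise the highest and lowest were named. Hif1a, Myc, G6pc3, Ldhb, H6pd and Rpe fall outside this rule. So do the marker genes named and the enzyme subunits of the other TCA list. All were chosen with their values known. The alternatives tried were 3 other uses of the technical array (left out, as a separate sample, or with the sample as a random block), a replicate block, quantile normalization, median centring, a minimum mean level of 6, eBayes trend and robust settings, averaging all probe sets of a gene, and leaving out each sample. Promoter sequences came from RefSeq. Figures used matplotlib 3.10.9 and pandas 2.3.3.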

Additional observations from a re-analysis of the deposited data

How the results depend on the processing

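No member passed limma's test under quantile normalization, median centring, the minimum mean level of 6, eBayes with trend and robust settings, averaged probe sets, the technical array left out, the replicate block or any left-out sample. Taldo1 was the 1 member called with the 6 arrays as separate samples and the 1 called with the sample as a random block. Taking the 6 arrays as separate samples counts the technical arrays as replicates, which they are not. Over all probe sets the count of 418 became 2318 with 6 separate arrays, 2074 with the random block, 650 with the minimum level, and 48 to 125 with a sample left out; the cause was not tested.

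With the replicate block 1535 probe sets and 0 members were called. Across all probe sets the gaps between sample 1 and sample 2 correlated at 0.31 between the cultures; with 2 pairs the numbers are not shown to pair samples. Rpia (limma adjusted p = 0.0327) and G6pc3 (limma adjusted p = 0.0443) passed with that block, as they did with the 6 arrays taken singly, and Rpia also with the minimum level (limma adjusted p = 0.0442).

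The median of all members was −0.072 with all probe sets of a gene averaged and ran from −0.057 to 0.0050 with a sample left out. That of uptake and preparatory steps ran from −0.047 to 0.10, that of the payoff steps from −0.038 to 0.013, and that of the TCA group from −0.18 to −0.054; those of the other groups moved by less than the spread between samples.

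Several differences changed sign, most of them near 0, but also those of Idh2 (−0.21), Slc16a1 (−0.13) and Pfkfb3 (−0.10) with a sample left out. Without the technical array the changed values were Gapdh 0.025, Pgk1 0.015, Eno2 −0.031 and Ldha 0.0008. With 6 separate arrays Gapdh was 0.011 and Eno2 −0.0235, and with the random block 0.0084 and −0.0185. After quantile normalization Pfkp was 0.0081, Pgk1 0.021, Eno2 −0.032 and Slc16a3 0.0008. Median centring gave Pfkp 0.0005, and averaged probe sets gave Pdk1 −0.028. With a sample left out the ranges that crossed 0 were Aldoc −0.066 to 0.25, Gapdh −0.055 to 0.037, Eno2 −0.17 to 0.20, Pkm −0.0017 to 0.034, Slc16a1 −0.25 to 0.0009, Pdk1 −0.079 to 0.11, Idh2 −0.45 to 0.031, Idh3a −0.23 to 0.070, Pfkm −0.037 to 0.026, Pfkp −0.056 to 0.053, Pfkfb3 −0.39 to 0.19, Ldha −0.042 to 0.021, Slc16a3 −0.061 to 0.032 and Pgk1 −0.038 to 0.013. The number of arrays limits the precision of all of these.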
